A study of Mus musculus with 6 samples.

Results

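The genes of sterol and fatty acid synthesis were followed through 4 stages of a mouse stem cell differentiation. The set was a list of enzymes of both pathways with their main regulators, and 29 of its 30 genes were measured among 19938 genes (Acat2 was not analysed here). Each of 6 cultures of strain 129 cells was hybridised to 1 Affymetrix whole-transcript array, from 150 ng of total RNA. Epiblast stem cells (EpiSCs) and the neural rosettes made from them by day 5 had 1 array each. The progenitors of oligodendrocytes (OPCs) and the oligodendrocytes themselves had 2 arrays each. EpiSCs were kept in 20% knockout serum replacement with 10 ng/ml FGF2. Rosettes were obtained by adding SHH and RA together with the inhibitors Noggin, Dorsomorphin and SB431542. OPCs came from dissociated rosettes and grew in N2B27 medium with FGF2, PDGF-AA and SHH. Oligodendrocytes were OPCs given thyroid hormone, with FGF2 and PDGF-AA taken away. OPCs and oligodendrocytes were each sampled at passage 11 and at passage 3, the oligodendrocytes having been made from OPCs of the same passage. All the cultures thus descend from EpiSCs, and the labels name no second line and no separate differentiation.

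Cholesterol is built from acetyl-CoA through mevalonate, squalene and lanosterol, and fatty acids are built from the same cytosolic acetyl-CoA. Both routes are switched on at the transcript level by the SREBP factors, which the protein encoded by Insig1 holds back in the endoplasmic reticulum when sterols are plentiful. Myelin is rich in cholesterol and long-chain lipids, and oligodendrocytes in the brain make much of the cholesterol they put into it.

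The labelled cell types were checked against marker genes, using the log2 of the summed linear level of each list. EpiSC markers summed to 15.50 in EpiSCs, against 10.38 to 10.80 in the other arrays. OPC markers summed to between 15.14 and 15.40 in the OPC and oligodendrocyte arrays, against 11.53 in EpiSCs and 11.91 in the rosette. The 10 measured oligodendrocyte and myelin genes summed to 16.41 (passage 11) and 15.99 (passage 3) in oligodendrocytes, against 12.75 (passage 11) and 12.72 (passage 3) in OPCs, and 10 of 10 passed the test between these cell types. The summed level of astrocyte markers was also high in the OPC and oligodendrocyte arrays (14.63 to 15.06, against 12.50 in EpiSCs and 12.59 in the rosette). In 5 of these 7 markers the mean of the OPC arrays was at least 2-fold above EpiSCs. Gfap, however, was at 8.11 in both OPC arrays, against 8.23 in EpiSCs. Aqp4 was at 7.84 (passage 11) and 8.27 (passage 3) in OPCs, against 7.75 in EpiSCs. Neuron markers were highest in the rosette (15.21). Microglia markers stayed between 10.42 and 10.69. These are mixtures of cells measured in bulk, where fewer cells of a type and less RNA per cell cannot be told apart.

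Every measured gene of the set gave a signal above the array median at every stage. Levels of different genes come from different probes, so they rank signals and not RNA amounts. All values are RMA log2 levels, which ran from 3.26 to 14.87 over the arrays with array medians of 8.98 to 9.04. The 29 genes lay above these medians in all 6 arrays, from 9.40 (Pmvk, rosette) to 14.21 (Scd2, oligodendrocytes of passage 11). Their mean level reached 11 in 26 of 29 genes, a level reached by 13.8% of all genes. The distance from the lowest to the highest of the 6 arrays had a median of 0.89, against 0.60 over all genes and 0.82 over genes with a mean level of at least 11. It reached 1 (2-fold) in 11 of 29 members (37.9%), against 37.8% of genes with a mean level of at least 11. It reached 2 (4-fold) in 0 members, against 9.4% of those genes. Among genes with a mean at least that of the dimmest member the median distance was 0.91. Of these genes 44.4% reached 1 and 11.9% reached 2. Hsd17b7 (1.83), Ebp (1.74), Tm7sf2 (1.41) and Lss (1.37) had the widest ranges, and Elovl5 (0.36), Fdps (0.46) and Elovl6 (0.47) the narrowest. The highest of the 6 arrays was the passage 11 oligodendrocyte array for 15 genes and the passage 3 OPC array for 7. The lowest was EpiSCs for 14 genes and the passage 11 OPC array for 11.

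**Figure D1:**
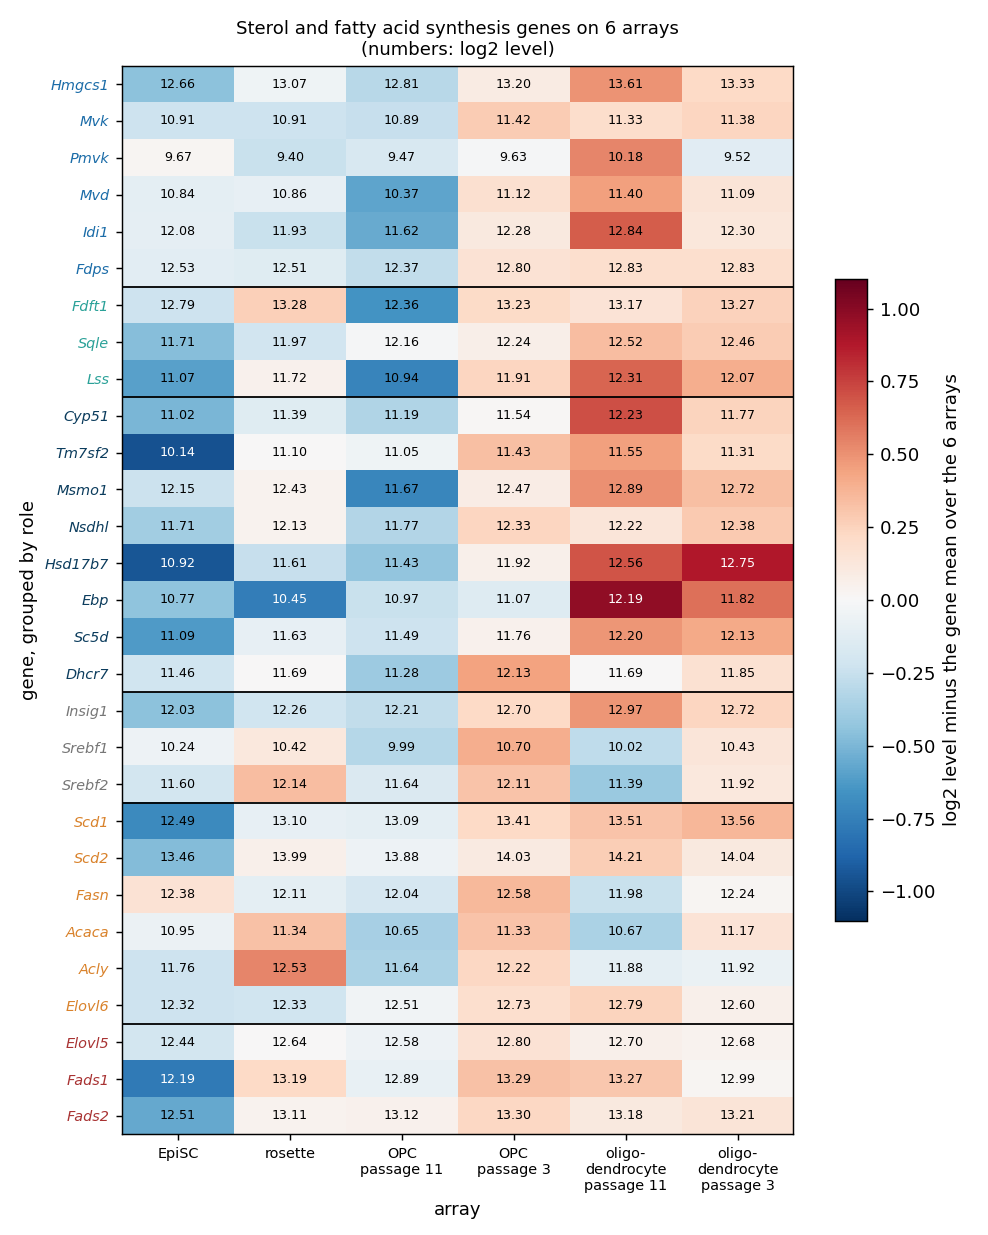
RMA log2 levels of the 29 measured genes (rows, grouped by role, gene names coloured by role) in the 6 arrays (columns), with each value printed in its cell. No gene falls below 9.40, and the passage 11 OPC column is lower than the passage 3 OPC column in every row.

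The median level of the 29 genes was 11.71 in EpiSCs, 12.11 in the rosette, 11.64 (passage 11) and 12.24 (passage 3) in OPCs, and 12.31 (passage 11) and 12.30 (passage 3) in oligodendrocytes. For the 17 sterol enzymes the median was 11.09 in EpiSCs, 11.69 in the rosette, 11.43 (passage 11) and 11.92 (passage 3) in OPCs, and 12.23 (passage 11) and 12.13 (passage 3) in oligodendrocytes. The median of the 9 fatty acid enzymes stayed between 12.38 and 12.80.

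Start-site sequence was read for the members because all measured members were lower in the OPC array of passage 11 than in that of passage 3. The RefSeq promoter table (build GRCm38.p6, 250 bases before to 50 after each gene start) held 23 of the 29 genes in 28 windows. A sterol regulatory element was searched as TCACNCCAC and, shorter by its last letter, as TCACNCCA, on both strands. The longer form was in 1 member window (3.57%, Hmgcs1), against 1.24% of all 32851 windows. The shorter form, which lies within every longer one, was in 3 (10.7%; Hmgcs1, Msmo1 and Srebf2), against 4.36%. CCAAT, the letters that NF-Y binds, was in 75% of the member windows, against 37.4% of all. GGGCGG, the letters that Sp1 binds, was in 71.4%, against 35.7%. A match describes the letters only. Printed here are Hmgcs1 (chr13:119690101-119690400, plus strand) and Srebf2 (chr15:82147019-82147318, plus strand), which hold the sterol element in its longer and its shorter form. Beside them stand Lss (chr10:76531355-76531654, plus strand), Hsd17b7 (chr1:169969156-169969455, minus strand) and Ebp (chrX:8193463-8193762, minus strand), which hold no such element in this window. Lss had the largest difference between the OPC passages (-0.97). Ebp and Hsd17b7 had the largest differences of oligodendrocytes from OPCs (0.99 and 0.98), but differed by -0.11 and -0.49 between the OPC passages. Msmo1, which holds the shorter form, differed by -0.80 there. All are 5′ to 3′ on the gene's strand, and capitals mark the searched motifs.
Hmgcs1: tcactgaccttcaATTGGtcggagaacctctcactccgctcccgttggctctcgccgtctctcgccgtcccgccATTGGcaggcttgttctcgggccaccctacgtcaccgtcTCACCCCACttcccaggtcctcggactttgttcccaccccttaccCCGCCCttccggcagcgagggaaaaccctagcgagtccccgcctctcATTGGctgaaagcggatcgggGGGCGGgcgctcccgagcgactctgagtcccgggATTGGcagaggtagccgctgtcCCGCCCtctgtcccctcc
Srebf2: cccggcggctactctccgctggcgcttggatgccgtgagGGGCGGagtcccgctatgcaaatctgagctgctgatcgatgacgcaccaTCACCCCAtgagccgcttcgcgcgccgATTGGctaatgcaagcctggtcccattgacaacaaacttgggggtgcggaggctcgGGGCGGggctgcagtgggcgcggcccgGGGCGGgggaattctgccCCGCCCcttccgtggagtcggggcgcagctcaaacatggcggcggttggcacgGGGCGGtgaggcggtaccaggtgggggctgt
Lss: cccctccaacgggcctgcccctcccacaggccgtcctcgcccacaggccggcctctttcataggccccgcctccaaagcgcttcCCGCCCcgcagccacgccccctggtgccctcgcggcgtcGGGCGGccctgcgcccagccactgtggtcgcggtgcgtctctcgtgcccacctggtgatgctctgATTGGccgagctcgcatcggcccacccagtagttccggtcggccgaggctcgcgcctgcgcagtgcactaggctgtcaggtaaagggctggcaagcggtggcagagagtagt
Hsd17b7: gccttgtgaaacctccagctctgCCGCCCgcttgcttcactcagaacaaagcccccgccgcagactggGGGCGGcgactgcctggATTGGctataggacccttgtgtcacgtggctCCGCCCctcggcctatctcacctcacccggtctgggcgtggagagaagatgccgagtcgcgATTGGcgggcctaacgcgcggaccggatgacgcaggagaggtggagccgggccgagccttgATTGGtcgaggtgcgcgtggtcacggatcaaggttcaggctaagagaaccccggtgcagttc
Ebp: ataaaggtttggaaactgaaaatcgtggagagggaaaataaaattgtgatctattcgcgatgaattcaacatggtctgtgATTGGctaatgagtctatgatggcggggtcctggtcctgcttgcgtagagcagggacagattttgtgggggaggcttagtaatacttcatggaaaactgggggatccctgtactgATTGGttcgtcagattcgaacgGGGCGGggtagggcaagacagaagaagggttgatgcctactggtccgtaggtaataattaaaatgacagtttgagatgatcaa

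Oligodendrocytes were compared with OPCs in 1 limma fit on all 6 arrays with cell type as the group, and a gene was called at a Benjamini-Hochberg adjusted p under 0.05 over all 19938 genes. None of the 29 members was called, in a comparison that called 0.446% of all genes (89, of which 79 higher). The smallest difference called in any gene was 1.19 on the log2 scale, and no member differed by that much. Without the passage 3 oligodendrocyte array 5 members were called (Pmvk, Idi1, Cyp51, Hsd17b7 and Ebp, all higher), where 14.6% of all genes were, and without the passage 11 one 2 were called (Hsd17b7 and Ebp), where 6.85% were. Both of these fits took their spread from the OPC pair alone, and members were called at about the share of all genes. In value, the oligodendrocyte mean was above the OPC mean for all sterol enzymes. This difference was positive for 17 of 17, also with the arrays centred on their medians and after cyclic loess. It was positive for 10011 of all 19938 genes and for 1058 of the 2743 genes with a mean level of at least 11. At passage 3 alone 12 of 17 were higher (median 0.04), against 47.1% of all genes, and at passage 11 alone 17 of 17 (median 0.80), against 51%. Over both passages the median difference was 0.38 for the mevalonate steps, 0.43 for squalene to lanosterol and 0.59 for lanosterol to cholesterol. The median was 0.25 over the 29 members (23 positive and 6 negative), against 0.00 over all genes. An unadjusted p under 0.05 was found for 5 of 29 members (17.2%), against 12.3% of all genes and 20.3% of genes with a mean level of at least 11, so the share is no result about the members.

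The 5 genes are described here by value, and each acts between lanosterol and cholesterol. Ebp, the sterol isomerase, was at 12.19 (passage 11) and 11.82 (passage 3) in oligodendrocytes, against 10.97 (passage 11) and 11.07 (passage 3) in OPCs. Both oligodendrocyte arrays were above both OPC arrays. The means were 12.01 ± 0.27 in oligodendrocytes and 11.02 ± 0.08 in OPCs (SD, n = 2 each), a limma difference of 0.99 ± 0.18 (SE; 1.98-fold, 95% interval 0.53 to 1.44), with an adjusted p of 0.135. Hsd17b7, a keto reductase of the same stretch, was at 12.56 (passage 11) and 12.75 (passage 3) in oligodendrocytes, against 11.43 (passage 11) and 11.92 (passage 3) in OPCs. The groups did not overlap here either, and the means were 12.65 ± 0.14 in oligodendrocytes and 11.67 ± 0.35 in OPCs (SD, n = 2 each). The limma difference was 0.98 ± 0.21 (SE; 1.97-fold, 95% interval 0.45 to 1.51), with an adjusted p of 0.173.

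Sc5d, the desaturase that follows Ebp, was at 12.20 (passage 11) and 12.13 (passage 3) in oligodendrocytes, against 11.49 (passage 11) and 11.76 (passage 3) in OPCs. Cyp51, which removes a methyl group from lanosterol, was at 12.23 (passage 11) and 11.77 (passage 3) in oligodendrocytes, against 11.19 (passage 11) and 11.54 (passage 3) in OPCs. Msmo1, the sterol methyl oxidase, was at 12.89 (passage 11) and 12.72 (passage 3) in oligodendrocytes, against 11.67 (passage 11) and 12.47 (passage 3) in OPCs. In each of these 3 genes both oligodendrocyte arrays were the higher ones, with OPCs of passage 11 lowest of the 4. The limma differences were 0.54 ± 0.16 for Sc5d (SE; adjusted p 0.273), 0.63 ± 0.22 for Cyp51 (SE; adjusted p 0.349) and 0.74 ± 0.28 for Msmo1 (SE; adjusted p 0.388). The other enzymes of the stretch, Tm7sf2, Nsdhl and Dhcr7, overlapped between the cell types.

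Upstream, both oligodendrocyte arrays were above both OPC arrays for Hmgcs1, which makes HMG-CoA, for Idi1, the isopentenyl isomerase, for Fdps, which makes farnesyl pyrophosphate, for the squalene epoxidase Sqle and for the lanosterol synthase Lss. Lss was at 12.31 (passage 11) and 12.07 (passage 3) in oligodendrocytes, against 10.94 (passage 11) and 11.91 (passage 3) in OPCs. Its limma difference of 0.77 ± 0.33 (SE; adjusted p 0.454) came mainly from passage 11 (1.37, against 0.16 at passage 3). Idi1 was at 12.84 (passage 11) and 12.30 (passage 3) in oligodendrocytes, against 11.62 (passage 11) and 12.28 (passage 3) in OPCs. Its dimmer second transcript on the array overlapped, with passage 3 oligodendrocytes at 12.06 and passage 3 OPCs at 12.12. The order was also narrow at passage 3 for Fdps, at 12.83 in oligodendrocytes and 12.80 in OPCs. The kinases Mvk and Pmvk, the decarboxylase Mvd and the squalene synthase Fdft1 overlapped between the cell types. Counting Insig1 and the desaturases Scd1 and Scd2, 13 of 29 members had both oligodendrocyte arrays on top, against 19% of all genes and 19.2% of genes with a mean level of at least 11. The count was 9 with the arrays centred on their medians and 17 after cyclic loess, and 8 and 14 for the sterol enzymes, in place of 10. With the mean of a gene's transcripts it was 12, and 9 for the sterol enzymes. Scd2 was counted with passage 3 oligodendrocytes at 14.04 and passage 3 OPCs at 14.03. The reverse order, with both oligodendrocyte arrays below, was seen for 0 members and 21.1% of all genes.

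Averaged over both passages, the fatty acid enzymes lay near 0 in this comparison, with the passages on opposite sides. At passage 11 alone 8 of 9 were higher in oligodendrocytes (median 0.24), against 51% of all genes. At passage 3 alone 7 of 9 were lower (median -0.13), against 52.8% of all genes. With both passages averaged, the median difference of oligodendrocytes from OPCs was 0.02 for the 6 genes of saturated and monounsaturated synthesis, of which 3 were positive. It was 0.00 for the 3 polyunsaturated ones. Of all 9, 5 were positive, against 4 with the arrays centred on their medians and 8 after cyclic loess (median 0.09). Fasn, the fatty acid synthase, differed by -0.20 (95% interval -0.77 to 0.37) and Elovl5, an elongase of polyunsaturated chains, by 0.00 (-0.37 to 0.38). Fads2, a desaturase, differed by -0.01. Of the SREBP genes, Srebf2 differed by -0.22 and Srebf1 by -0.12. Cycling markers were lower in oligodendrocytes, with a summed level of 12.83 (passage 11) and 13.81 (passage 3) against 14.48 (passage 11) and 14.59 (passage 3) in OPCs. Fibroblast and pericyte markers were higher in value in 6 of 6, with none called, and summed to 12.81 (passage 11) and 14.77 (passage 3) in oligodendrocytes, against 12.60 (passage 11) and 13.49 (passage 3) in OPCs. Astrocyte markers summed to 14.71 (passage 11) and 14.63 (passage 3) in oligodendrocytes, against 14.76 (passage 11) and 15.06 (passage 3) in OPCs. Of these, Gfap was at 8.69 (passage 11) and 10.5 (passage 3) in oligodendrocytes, against 8.11 in both OPC arrays. Over the 7 astrocyte markers, 3 were higher and 4 lower in oligodendrocytes, with a median difference of -0.09. Neuron markers summed to 12.45 (passage 11) and 13.61 (passage 3) in oligodendrocytes, against 12.79 (passage 11) and 13.07 (passage 3) in OPCs. The part of these markers in the sterol differences was not tested.

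**Figure D2:**
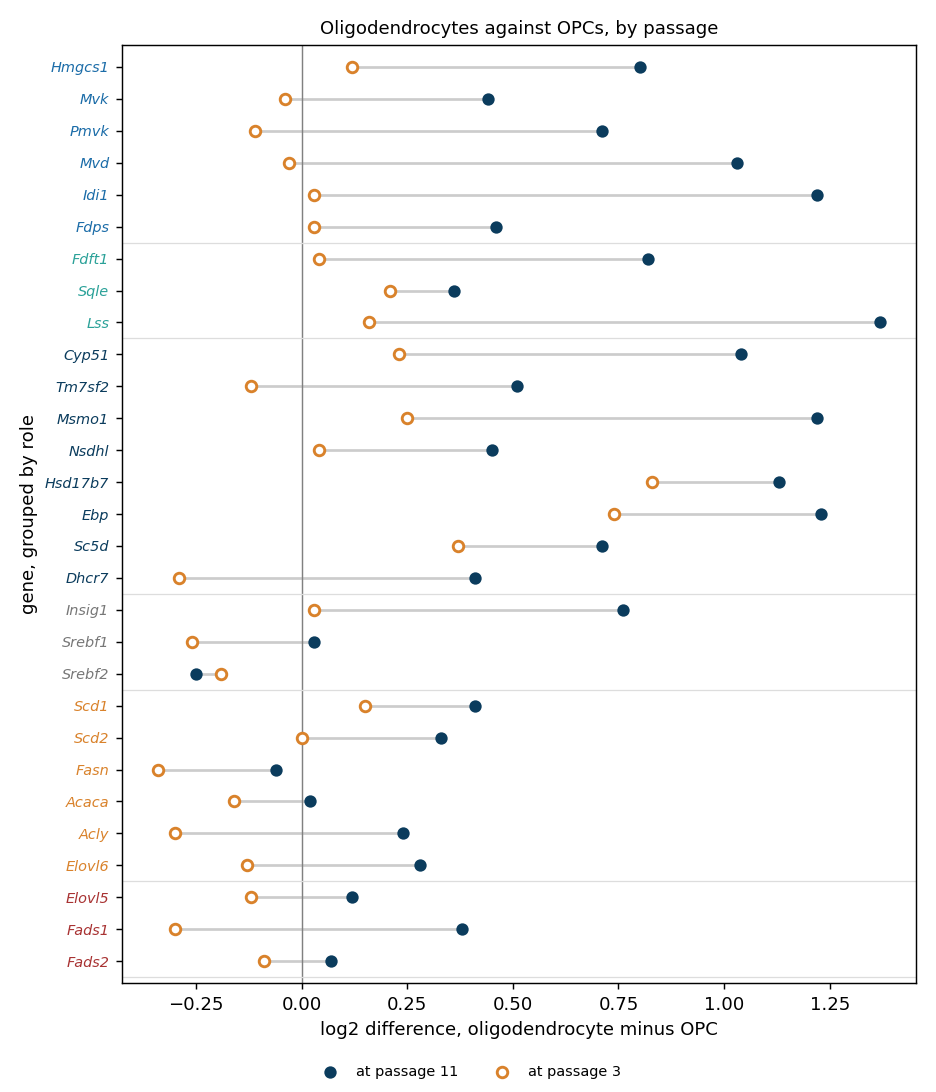
Log2 difference of oligodendrocytes from OPCs for each of the 29 genes (rows, grouped by role), at passage 11 and at passage 3, with 1 array of each cell type behind each point. At passage 11 the 17 sterol enzymes lie right of 0, and at passage 3 most members lie close to it.

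The oligodendrocyte differences were larger in value at passage 11 than at passage 3. At passage 11, 27 of 29 members were higher in oligodendrocytes than in OPCs (background 51% of all genes), with a median difference of 0.45. Among genes with a mean level of at least 11 the share was 39.7% at passage 11 and 39.6% at passage 3. At passage 11, 7 members were at least 2-fold higher (background 2.55%): Lss 1.37, Ebp 1.23, Idi1 1.22, Msmo1 1.22, Hsd17b7 1.13, Cyp51 1.04 and Mvd 1.03. At passage 3, 15 of 29 were higher (background 47.1%; 11 with the arrays centred on their medians and 17 after cyclic loess), with a median of 0.00, and 0 reached 2-fold (background 2.65%). Hsd17b7 (0.83) and Ebp (0.74) had the largest differences at passage 3, followed by Sc5d (0.37). The difference was more positive at passage 11 in 28 of 29 members, with a median excess of 0.48, against 51.1% of all genes and a median of 0.01; Srebf2 (-0.05) was the exception, except with the arrays centred on their medians, where 29 of 29 were. The excess was over 1 for Lss (1.21), Idi1 (1.19) and Mvd (1.06). Each passage has 1 array of each cell type, so none of these values has a test. Accordingly the median difference of oligodendrocytes from both OPC arrays, 0.25, became 0.46 without the passage 3 OPC array and 0.03 without the passage 11 one.

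**Figure D3:**
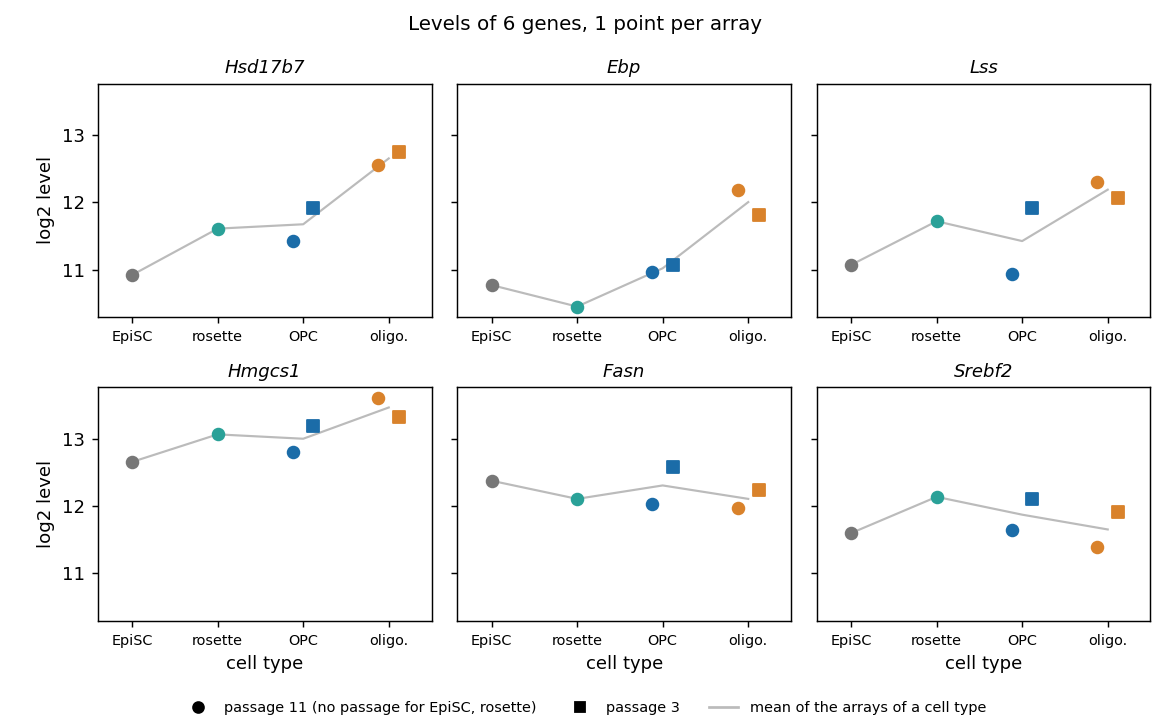
RMA log2 levels of 6 genes by stage, 1 point per array, with circles for passage 11 and for the stages without a passage, squares for passage 3 and a line through the mean of each stage. Ebp and Hsd17b7 are higher in the oligodendrocyte arrays of both passages, whereas OPCs lie below oligodendrocytes for Lss mainly at passage 11.

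The most uniform pattern in the set lay within the OPCs. All 29 members were lower in the passage 11 OPC array than in the passage 3 one, by -0.97 (Lss) to -0.08 (Sqle) with a median of -0.47. Among all genes 45.5% were lower, with a median of 0.02, and among the genes with a mean level of at least 11, 57.2% were lower, with a median of -0.04. Differences of -0.5 or beyond were seen in 12 members, against 3.29% of all genes and 3.35% of the genes with a mean of at least 11. No member differed 2-fold (background 0.627%). The count stayed 29 of 29 with the mean of a gene's transcripts (median -0.47), after centring the arrays on their medians (-0.48) and after cyclic loess (-0.43). The arrays are 1 per passage, so the difference between passages cannot be told apart from a difference between 2 cultures.

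Among the sterol enzymes the lower values spanned the whole route. Lss was at 10.94 in passage 11 OPCs, against 11.91 in passage 3 OPCs. Dhcr7, the reductase that makes cholesterol from its immediate precursor, was at 11.28 in passage 11 OPCs, against 12.13 in passage 3 OPCs. Msmo1 was at 11.67 against 12.47 and Mvd at 10.37 against 11.12, passage 11 before passage 3. These 4 enzymes were thus 0.76 to 0.97 lower on the log2 scale. Fdft1 was at 12.36 in passage 11 OPCs, against 13.23 in passage 3 OPCs, but its dimmer second transcript on the array differed less, by -0.39 in place of -0.88. Sqle (-0.08), Ebp (-0.11), Pmvk (-0.16) and Sc5d (-0.27) were the sterol enzymes that differed least.

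The regulators and fatty acid enzymes were lower as well. Srebf1, whose product favours fatty acid genes, was at 9.99 in passage 11 OPCs, against 10.70 in passage 3 OPCs. Srebf2, whose product favours sterol genes, was at 11.64 in passage 11 OPCs, against 12.11 in passage 3 OPCs, and Insig1 at 12.21 against 12.70 in the same order. Acaca, which makes malonyl-CoA, differed by -0.68, Acly, which makes cytosolic acetyl-CoA from citrate, by -0.58, and Fasn by -0.53. The dimmer second transcript of Acaca on the array differed more, by -0.99 in place of -0.68. The chain-modifying enzymes differed less: Fads1 -0.39, Scd1 -0.32, Elovl5 -0.22, Elovl6, an elongase of saturated chains, -0.22, Fads2 -0.19 and Scd2 -0.15. Scd1 and Scd2, and likewise Fads1 and Fads2, are close paralogs, and signal shared between their probes was not assessed.

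Markers of other cell types differed between the same 2 OPC arrays. Fibroblast and pericyte markers summed to 12.60 at passage 11 and 13.49 at passage 3. Tagln differed by -1.60, Acta2 by -1.15 and Dcn by -0.74, but Col1a1 and Col3a1 by 0.0 and Col1a2 by 0.22. Neuron markers summed to 12.79 at passage 11 and 13.07 at passage 3. Stmn2 differed by -2.66, but 3 of the 7 neuron markers were higher at passage 11, and the median of the 7 was -0.02. Astrocyte markers summed to 14.76 at passage 11 and 15.06 at passage 3, and cycling markers to 14.48 and 14.59. Their part in the result was not tested. OPC markers themselves summed to 15.40 at passage 11 and 15.30 at passage 3.

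**Figure D4:**
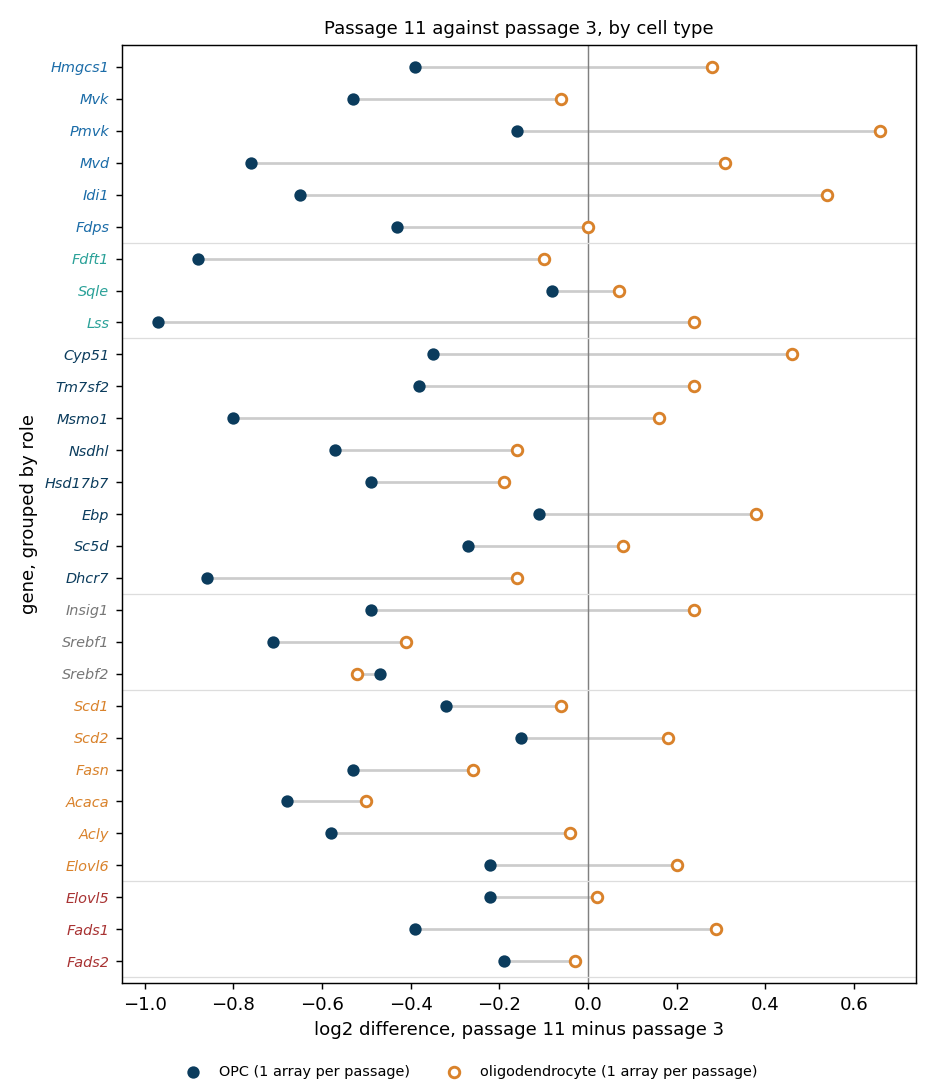
Log2 difference of passage 11 from passage 3 for each of the 29 genes (rows, grouped by role), in OPCs (filled) and in oligodendrocytes (open), with 1 array per passage and cell type. Every OPC point lies below 0, and the oligodendrocyte points lie on both sides.

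Oligodendrocytes did not share the pattern across the set. In them 12 of 29 members were lower at passage 11 than at passage 3 (background 42.9%; 8 with the arrays centred on their medians and 10 after cyclic loess), with a median of 0.07, against 0.06 over all genes. Of genes with a mean level of at least 11, 59.1% were lower. Sterol enzymes were higher at passage 11 in 12 of 17 (background 57.1%), with a median of 0.16. Pmvk (0.66), Idi1 (0.54), Cyp51 (0.46) and Ebp (0.38) led them. Of the members that were lower in oligodendrocytes of passage 11, Srebf2 (-0.52), Acaca (-0.50), Srebf1 (-0.41) and Fasn (-0.26) were furthest from 0, while Insig1 was at 0.24 and Acly at -0.04. In the same arrays, passage 11 before passage 3, fibroblast and pericyte markers summed to 12.81 and 14.77, neuron markers to 12.45 and 13.61, cycling markers to 12.83 and 13.81, and myelin genes to 16.41 and 15.99. Their part was not tested.

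**Figure D5:**
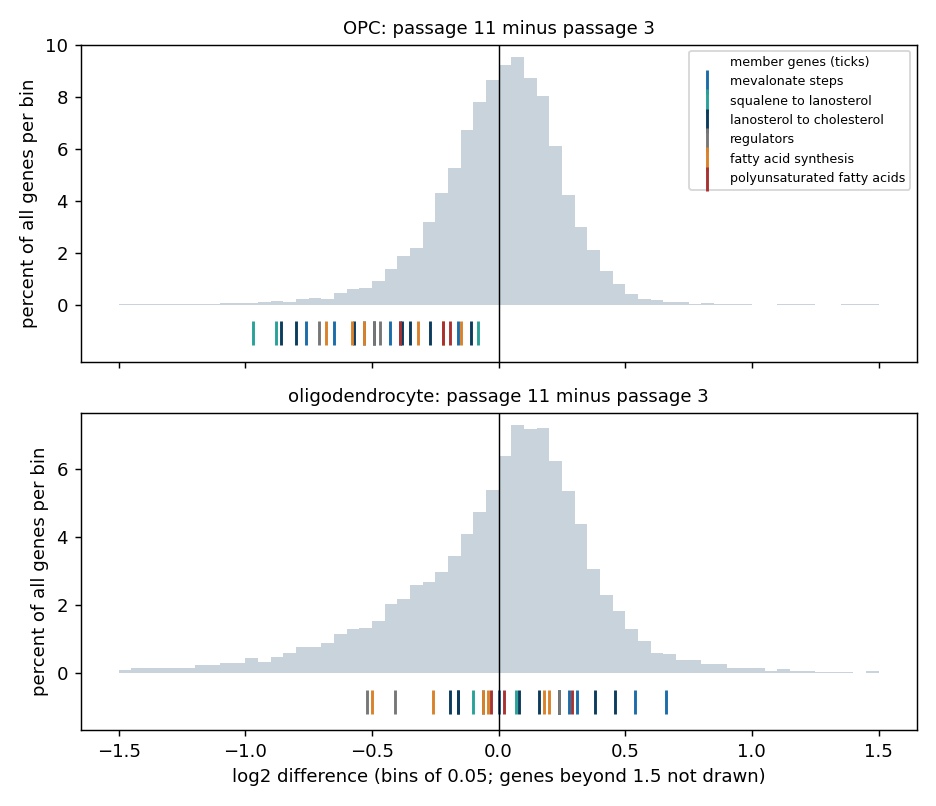
Distribution over all genes of the log2 difference of passage 11 from passage 3 (bins of 0.05), in OPCs and in oligodendrocytes, with the 29 members as ticks. The OPC ticks all lie below 0 where 45.5% of all genes do, and the oligodendrocyte ticks lie on both sides of 0.

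A limma fit of passage over both cell types, with cell type as a covariate, called 0 of 29 members and 0% of all genes. In that fit 13.9% of all genes had an unadjusted p under 0.05, and the lowest adjusted p of any gene was 0.0928. Its error measures how alike the passage differences of OPCs and oligodendrocytes were. Among the members 4 of 29 (13.8%) had one, no more than the share of all genes and below the 15.8% of genes with a mean level of at least 11. They were Acaca, Srebf1, Srebf2 and Fasn. Acaca was at 10.67 (oligodendrocytes) and 10.65 (OPCs) at passage 11, against 11.17 (oligodendrocytes) and 11.33 (OPCs) at passage 3. The values of passage 11 lay below those of passage 3 in both cell types, with a limma difference of -0.59 ± 0.12 (SE; 95% interval -0.92 to -0.27). Srebf1 differed by -0.56 ± 0.13 (SE), Srebf2 by -0.50 ± 0.11 (SE) and Fasn by -0.40 ± 0.13 (SE), and each of the 4 had an adjusted p of 0.357 in limma. Over the 29 members the median was -0.19, with 25 negative, against 0.04 over all genes.

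The earlier steps of the course were compared as well. Against the lone rosette array, OPCs had 0 of 29 members called, in a comparison that called 3.13% of all genes, with 0.98 the smallest difference called. Ebp had the one unadjusted p under 0.05 among the members, where 15.4% of all genes had one: it was at 10.97 (passage 11) and 11.07 (passage 3) in OPCs, against 10.45 in the rosette, a limma difference of 0.57 ± 0.22 (SE; adjusted p 0.311). Acly was lower in OPCs in value, by -0.60 ± 0.27 (SE; adjusted p 0.405). The median difference over the members was 0.01, with the 2 OPC arrays on opposite sides of the rosette. Passage 11 OPCs were below it in 24 of 29 members (background 46.1%), with a median of -0.18, and passage 3 OPCs were above it in 25 of 29 (background 48.9%; 28 with the arrays centred on their medians), with a median of 0.23. Among genes with a mean level of at least 11, these 2 shares were 49.7% and 53.8%.

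The rosette and EpiSCs had 1 array each, so their difference has no test. In value 23 of 29 members were higher in the rosette (background 41.3%), with a median of 0.37 against -0.07 over all genes, and 0 reached 2-fold (background 10.6% either way). Among genes with a mean level of at least 11, 49.9% were higher in the rosette. By role the median was -0.01 for the mevalonate steps, 0.49 for squalene to lanosterol, 0.40 for lanosterol to cholesterol and 0.53 for the 9 fatty acid enzymes. Fads1, a desaturase of polyunsaturated chains, was at 13.19 in the rosette and 12.19 in EpiSCs, just under 2-fold. Tm7sf2, a sterol reductase, was at 11.10 in the rosette and 10.14 in EpiSCs. Acly was higher by 0.77, Hsd17b7 by 0.69, Lss by 0.65 and Scd1 by 0.62. Ebp (-0.31), Pmvk (-0.28) and Fasn (-0.27) were the members furthest the other way. Nsdhl, a dehydrogenase of the demethylation steps, was at 12.13 in the rosette and 11.71 in EpiSCs, and Mvk was at 10.91 in both.

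Across the whole course, the mean of the 2 oligodendrocyte arrays was above EpiSCs in 26 of 29 members (background 45.7%), with a median of 0.59. Among genes with a mean level of at least 11, 48.9% were above EpiSCs and 12.1% at least 2-fold above. At least 2-fold higher were 6 members (background 7.15%): Hsd17b7 1.74, Tm7sf2 1.29, Ebp 1.24, Lss 1.12, Sc5d 1.07 and Scd1 1.05. Of these, 5 are sterol enzymes and 4 of those 5 act after lanosterol. Hsd17b7 was at 10.92 in EpiSCs, 11.61 in the rosette, 11.43 (passage 11) and 11.92 (passage 3) in OPCs, and 12.56 (passage 11) and 12.75 (passage 3) in oligodendrocytes.

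Around the set, 41 of 50 listed genes of sterol control and transport and of fatty acid supply were measured. Between oligodendrocytes and OPCs 1 of 41 was called, higher, and 0 lower, with a median of 0.06, in the comparison that called 0.446% of all genes. It was Elovl7, an elongase of long-chain fatty acids, at 13.06 (passage 11) and 12.33 (passage 3) in oligodendrocytes, against 9.23 (passage 11) and 9.20 (passage 3) in OPCs. The limma difference was 3.48 ± 0.26 (SE; 11.1-fold), with an adjusted p of 0.0294. Between OPCs and the rosette 1 of 41 was called, also higher, where 3.13% of all genes were called. It was Me1, the malic enzyme that supplies NADPH, at 11.90 in both OPC arrays against 9.15 in the rosette. That difference was 2.75 ± 0.16 (SE; 6.7-fold), with an adjusted p of 0.00583 in limma. By passage 0 of 41 were called, with a median of -0.03. In the passage 11 OPC array 20 of 41 were lower than in the passage 3 one, with a median of 0.01 (17 of 41 lower after cyclic loess), against 45.5% of all genes.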

How the data were processed

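RNA of 6 cultures was measured on 1 array each. The submitters' processing notes name RMA and Affymetrix Expression Console as the means by which the authors made the deposited log2 values, with versions and options not given in the sources used here. RMA has no zeros or detection calls, so low values may be background. Precision is limited by the number of arrays.

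Of 35556 transcripts, 21789 carried 1 gene symbol, 1621 several and 12146 none. Of the Entrez IDs, 21698 were in the RefSeq gene table, which changed 0 symbols. The brightest transcript stood for each of 999 genes with several, which left 19938 genes. Promoter sequences came from RefSeq (GRCm38.p6).

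Two-sided tests used lmFit and eBayes of limma 3.58.1 (R 4.3.3), with Benjamini-Hochberg adjustment over all genes. The fit by cell type used 6 arrays (2 residual and 3.32 prior degrees of freedom) and gave the lone rosette array the spread pooled within OPCs and oligodendrocytes. The passage fit used the 4 OPC and oligodendrocyte arrays (1 residual and 3.19 prior degrees of freedom). The labels name no separate cultures beyond passage, so the p-values cover the spread among these samples alone, passage included, which may be technical.

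Replicate 1 is passage 3 and replicate 2 passage 11. Per the labels, oligodendrocytes were made from OPCs of the same passage, so the numbers mark a shared passage, and the passage differences of both cell types correlated over genes at r = 0.50. The members, the 50 further pathway genes and the marker lists were chosen with earlier results of these data known. All members were named by role, and further pathway genes where called. Alternatives were median centring, cyclic loess (chosen after seeing the data), the mean of a gene's transcripts, leaving out dim genes, a trended and robust prior, the passage as a block, the 4 arrays alone and leaving out each array.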

Additional observations from a re-analysis of the deposited data

Results flagged for a closer look

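The passage difference was positive in oligodendrocytes and negative in OPCs for 17 of 29 members. All 29 were negative in OPCs, so these 17 (58.6%) are the members positive in oligodendrocytes. That share is near the 57.1% of all genes that were positive in oligodendrocytes. Among genes with a mean level of at least 11 it was 40.9%. The passage difference is given here for the 3 groups of enzymes and the 2 genes where it was of some size in both cell types. Each value below sets the oligodendrocyte difference of passage 11 from passage 3 against the OPC one, with 1 array per passage and cell type, and these differences between cell types were not tested. For a single gene this is the same quantity as the excess of the oligodendrocyte difference at passage 11 given above. It rests on the same 4 arrays and is no second result. For the mevalonate steps the median was 0.29 in oligodendrocytes and -0.48 in OPCs, 0.78 apart. For the steps from lanosterol to cholesterol it was 0.12 in oligodendrocytes and -0.44 in OPCs, 0.56 apart. For all 17 sterol enzymes it was 0.16 in oligodendrocytes and -0.49 in OPCs, 0.65 apart. Idi1 was at 0.54 in oligodendrocytes and -0.65 in OPCs, 1.19 apart, and Cyp51 at 0.46 in oligodendrocytes and -0.35 in OPCs, 0.81 apart. No group held the 4 arrays needed to look for a single array far from the rest.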

How the results depend on the processing

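Among 203 alternative values for 29 results, some medians of the members changed sign. For OPCs against the rosette the median was -0.18 in place of 0.01 without the passage 3 OPC array. For passage 11 against passage 3 it was 0.07 in place of -0.19 for oligodendrocyte arrays only. For oligodendrocytes against OPCs at passage 3 it was 0.00. That became -0.01 with the mean of a gene's transcripts, -0.04 with median centring and 0.06 after cyclic loess. No member was called to begin with, so none could lose a call. Between oligodendrocytes and OPCs the members called stayed at 0 in every alternative that kept both oligodendrocyte arrays. Without the passage 3 oligodendrocyte array the difference was 1.17 for Ebp and 0.88 for Hsd17b7. Without the passage 11 one it was 0.80 for Ebp and 1.08 for Hsd17b7. Over the alternatives the adjusted p of Ebp ranged from 0.000773 to 0.635 and that of Hsd17b7 from 0.00733 to 0.712. Leaving out 1 array at a time gave 0 to 5 members and 2 to 2919 genes called. The 89 genes called became 157 with median centring and 11 after cyclic loess. For OPCs against the rosette, 624 became 334 without dim genes, and leaving out 1 array gave 156 to 2897, with 0 members throughout. With the passage as a replicate block, 83 genes (0 members) were called between oligodendrocytes and OPCs and 1206 (0 members) between OPCs and the rosette; the block changed no call of a member. For passage, 0 genes called became 2 with median centring and 1 with a trended and robust prior. The passage fit leaves 0 residual degrees of freedom when 1 array is left out, so that was not run. After cyclic loess 1 member was 2-fold higher in the rosette than in EpiSCs, in place of 0. These causes were not tested.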
